A study of Rattus norvegicus with 2 samples.

Results

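The genes described here are the chemokines and the chemokine receptors of the rat retina, taken from the deposited expression table by gene symbol. A gene was included when its symbol began with Ccl, Cxcl, Ccr, Cxcr, Xcl, Xcr or Ackr followed by a number, or was Cx3cl1 or Cx3cr1. This gave 56 of the 32662 listed genes, of which 34 are ligands and 22 are receptors, and 3 of the receptors are of the atypical kind.

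RNA-seq was performed on 2 retina libraries, a control after a sham procedure (CTRL) and an injured retina taken 12 hours into reperfusion after ischemia (IR12). Both libraries came from Long-Evans rats aged 2 months, with 1 library per group. There were no replicates, so differences are given as values of these libraries, without a test. Expression was given by the authors as FPKM, in which reads are scaled to transcript length and library size, and log2 ratios are of IR12 over CTRL after adding 1 to each FPKM. This scale understates the change of low genes. Rod and cone genes, which define a retina, were abundant in both libraries. The 10 rod and cone markers summed to 15885 FPKM in CTRL and 19180 FPKM in IR12, and Gnat1, a subunit of rod transducin, had 4027 and 4237 FPKM.

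Chemokines are small secreted proteins that guide leukocytes along a gradient and trigger their arrest on the vessel wall. Most bind G protein-coupled receptors, while atypical receptors bind and remove chemokines without G protein signalling. Injured neural tissue makes chemokines in glia, endothelium and invading leukocytes, and in the ischemic retina they are known for the entry of neutrophils and monocytes.

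FPKM gives no read counts, but its lowest values move in steps of whole reads. Among the 984 genes above 0 in both libraries and under 0.1 FPKM in CTRL, the most common ratio of CTRL to IR12 was 1.708, found to 3 decimals in 192 genes. If that ratio stands for 1 read in each library, the ratios of 80.4% of these genes lie within 0.3% of a ratio of whole numbers of up to 10 reads. A read then weighed 1.708 times as much in CTRL as in IR12, which rested on more reads. This step was chosen after the data were seen. A listed 0 need not mean silence, since all 37 mitochondrial genes are at 0 in both libraries.

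Chemokine genes were more often higher than lower in IR12. In IR12, 20 of the 56 genes were higher by 2-fold or more, and 1, Ackr3, was lower by 2-fold or more. Among the 19100 genes of the table above 0 in either library, 4.67% were at least 2-fold higher and 4.36% were at least 2-fold lower. The chemokine genes above 0 in either library numbered 49, and 40.8% of these were at least 2-fold higher. Of the 49 genes, 24 were above 0 in IR12 alone and none in CTRL alone, and these 24 passed the filter only through the library in which they are higher. Among all genes above 0, 9.60% were above 0 in IR12 alone and 3.57% in CTRL alone. Among the 25 chemokine genes above 0 in both libraries, 9 were at least 2-fold higher, compared with 4.37% of the 16584 such genes of the table. After rescaling both libraries to an equal sum without small non-coding RNAs, which moves the median gene with at least 1 FPKM in both libraries from 0.03 to -0.07, 23 chemokine genes were higher by this limit and 3 lower. With the FPKM of all genes brought to an equal sum (TPM scale), 21 were higher and 0 lower. That rescaling changes both libraries and so favours this direction. Before the pseudocount, it raises the log2 ratio of IR12 over CTRL by 0.65 for every gene above 0 in both libraries. On the TPM scale the same median moved to 0.60, and the counts over all genes moved from 892 higher and 832 lower to 2828 and 436.

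Most of the genes past the 2-fold limit were ligands. Of the 34 ligands, 18 were higher by at least 2-fold and none was lower by as much. Of the 22 receptors, 2 were at least 2-fold higher, Ccr1 and Cxcr2, and 1 was at least 2-fold lower. The median log2 ratio was 1.44 over the 30 ligands above 0 in either library and 0.05 over the 19 such receptors, beside 0.02 over all genes. The ligands summed to 38.7 FPKM in CTRL and 308 FPKM in IR12, and the receptors to 17.3 FPKM in CTRL and 16.2 FPKM in IR12. Ligand RNA was therefore 2.24 times receptor RNA in CTRL and 19.0 times receptor RNA in IR12. Of the 100 genes with the largest log2 ratios in the whole table, 7 were chemokines, all of them ligands. These were Ccl2, Ccl12, Ccl7, Ccl20, Ccl3, Cxcl10 and Cxcl1, and Ccl2 ranked 2 among the 19100 genes.

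**Figure D1:**
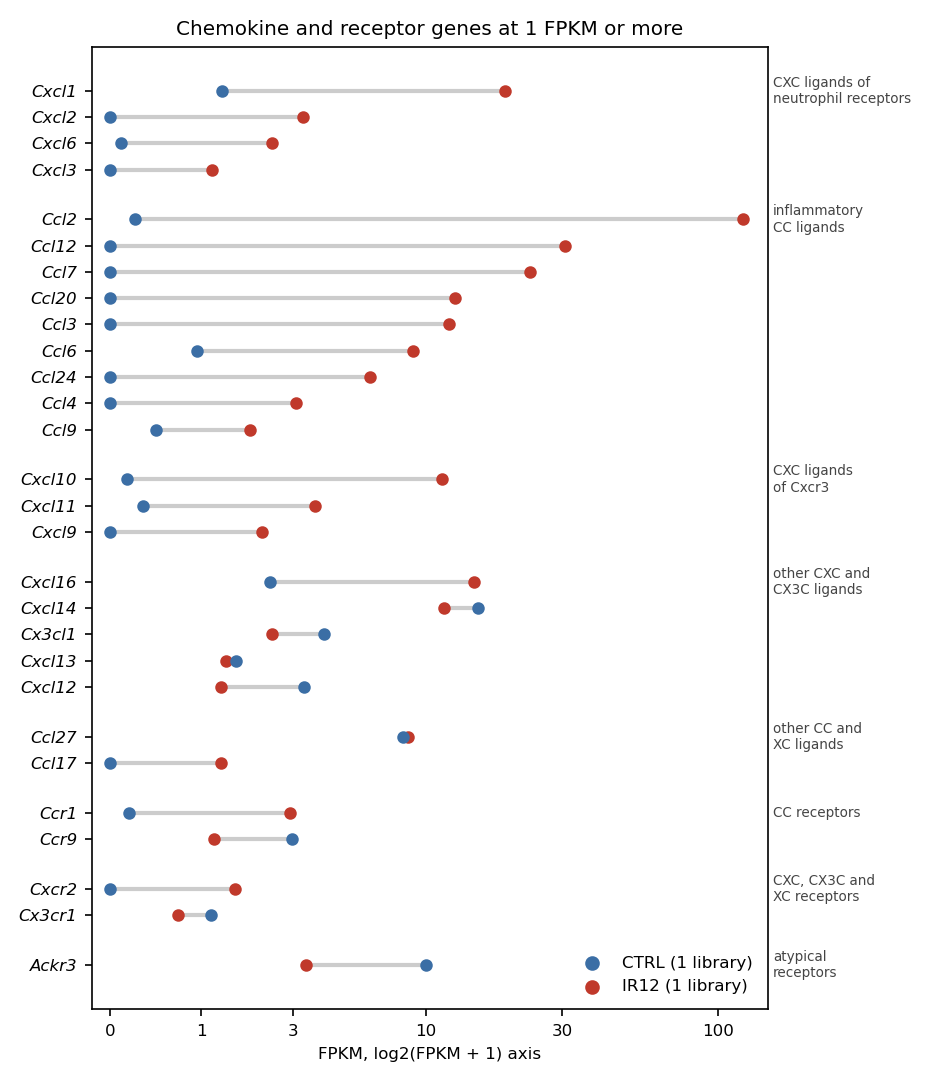
FPKM of 28 of the 29 chemokine and receptor genes with at least 1 FPKM in either library, on a log2(FPKM + 1) axis. CTRL is in blue and IR12 in red (1 library each), and genes are ordered by role. In the upper 3 groups every red point lies to the right of the blue one, from Cxcl3 at 1.16 FPKM to Ccl2 at 121 FPKM in IR12.

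The CC ligands that attract monocytes carried most of the ligand RNA of IR12. Ccl2, the main attractant of monocytes that carry Ccr2, had 0.205 FPKM in CTRL and 121 FPKM in IR12. Its log2 ratio was 6.67, and its level in IR12 lay at percentile 93.8 of the genes with at least 1 FPKM in that library. Ccl12, a rodent ligand of Ccr2, was listed at 0 in CTRL and had 30.7 FPKM in IR12. Ccl7, which binds Ccr1, Ccr2 and Ccr3, was listed at 0 in CTRL and had 23.2 FPKM in IR12. These 3 genes were thus at or near 0 in the sham retina and together made up 56.9% of the summed ligand FPKM of IR12, with Ccl2 alone at 39.4%.

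A second set of CC ligands attracts macrophages and other leukocytes. Ccl3 was listed at 0 in CTRL and had 12.1 FPKM in IR12. Ccl4, a close relative of Ccl3, was listed at 0 in CTRL and had 3.10 FPKM in IR12. Both were therefore seen in the injured retina alone, while the next pair already had RNA in the sham retina. Ccl6, a rodent CC ligand made by myeloid cells, had 0.942 FPKM in CTRL and 8.95 FPKM in IR12, with a log2 ratio of 2.36. Ccl9, a ligand of Ccr1, had 0.417 FPKM in CTRL and 1.89 FPKM in IR12, with a log2 ratio of 1.03, just past the 2-fold limit. Ccl5, which is typical of activated T cells, lay well below the others, at 0 in CTRL and 0.333 FPKM in IR12, with a log2 ratio of 0.41 that was 2.11 with a pseudocount of 0.1.

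Other CC ligands were also higher. Ccl20, the ligand of Ccr6, was listed at 0 in CTRL and had 12.7 FPKM in IR12. Ccl24, an attractant of eosinophils through Ccr3, was listed at 0 in CTRL and had 6.19 FPKM in IR12. Ccl17, a ligand of Ccr4, was listed at 0 in CTRL and had 1.33 FPKM in IR12. Its partner at the same receptor, Ccl22, had 0 in CTRL and 0.887 FPKM in IR12, below the 2-fold limit at 0.92, but past it with a pseudocount of 0.1, at 3.30, and without small non-coding RNAs, at 1.502. Of the 12 ligands grouped as inflammatory CC ligands, a group without Ccl17, 9 were at least 2-fold higher, and the median log2 ratio over the 12 was 2.60. Ccl11, another ligand of Ccr3, was close to 0, with 0 in CTRL and 0.0470 FPKM in IR12.

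The CXC ligands of the neutrophil receptors Cxcr1 and Cxcr2 were all at least 2-fold higher in IR12, 4 of 4. Cxcl1, the most abundant of them, had 1.35 FPKM in CTRL and 19.1 FPKM in IR12, with a log2 ratio of 3.10. Cxcl2 was listed at 0 in CTRL and had 3.32 FPKM in IR12. Cxcl6 had 0.0913 FPKM in CTRL and 2.43 FPKM in IR12, with a log2 ratio of 1.65. Cxcl3 was listed at 0 in CTRL and had 1.16 FPKM in IR12. Only Cxcl1 had at least 1 FPKM in the sham retina, and the 4 genes summed to 1.44 FPKM there and 26.0 FPKM in IR12. Cxcl1, Cxcl2 and Cxcl3 are close paralogs, so the split of reads among them is uncertain.

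The CXC ligands of Cxcr3, which attract T and NK cells and are induced by interferons, were also at least 2-fold higher, 3 of 3. Cxcl10 had 0.139 FPKM in CTRL and 11.5 FPKM in IR12, with a log2 ratio of 3.45. Cxcl11 had 0.288 FPKM in CTRL and 3.73 FPKM in IR12, with a log2 ratio of 1.88. Cxcl9 was listed at 0 in CTRL and had 2.17 FPKM in IR12. Cxcl10 thus had most of the RNA of this group. Cxcl10 and Cxcl11 share 1 listed locus with Art3, and whether strand was used in the counting is not given in the sources used here, so the values of these overlapping genes are uncertain. Art3 had 1.73 FPKM in CTRL and 1.01 FPKM in IR12.

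Promoters of Cxcl1, Cxcl2, Cxcl6, Cxcl10, Cxcl11 and the CC ligand Ccl20 are shown. These genes were higher in IR12, each promoter holds a match to the NF-kB consensus, and some hold the same letters. Other CXC ligands are not shown, among them Cxcl9, whose matched promoter held no such match. RefSeq promoters, 300 bases from 250 before to 50 after the gene's start on build GRCr8, were matched by symbol for 43 of the 56 genes. Genes without a matched entry included Ccl2, Ccl3, Ccl4, Ccl5, Ccl11, Cxcl3, Ccr4, Ccr7, Ccr8, Ccr9, Ccr10 and Cxcr5. Each sequence runs 5′ to 3′ along the strand of its gene, and capitals mark matches to the NF-kB consensus on either strand. The windows are chr14:17479272-17479571 for Cxcl1, chr14:17467206-17467505 for Cxcl2 and chr14:17596368-17596667 for Cxcl6, all on the minus strand. They are chr14:15988816-15989115 for Cxcl10 on the plus strand, chr14:15973478-15973777 for Cxcl11 on the plus strand and chr9:91836909-91837208 for Ccl20 on the plus strand.
Cxcl1: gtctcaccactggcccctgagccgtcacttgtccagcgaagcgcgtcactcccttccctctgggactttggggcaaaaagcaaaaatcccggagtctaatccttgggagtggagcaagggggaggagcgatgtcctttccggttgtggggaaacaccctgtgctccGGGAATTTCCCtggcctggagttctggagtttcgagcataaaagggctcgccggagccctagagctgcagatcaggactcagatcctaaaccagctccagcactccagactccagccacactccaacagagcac
Cxcl2: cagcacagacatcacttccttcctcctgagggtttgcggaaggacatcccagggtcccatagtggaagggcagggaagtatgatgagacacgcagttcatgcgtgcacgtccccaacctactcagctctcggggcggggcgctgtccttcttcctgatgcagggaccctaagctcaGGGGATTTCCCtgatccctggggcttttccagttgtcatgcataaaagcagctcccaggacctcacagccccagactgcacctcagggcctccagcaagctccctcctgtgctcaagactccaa
Cxcl6: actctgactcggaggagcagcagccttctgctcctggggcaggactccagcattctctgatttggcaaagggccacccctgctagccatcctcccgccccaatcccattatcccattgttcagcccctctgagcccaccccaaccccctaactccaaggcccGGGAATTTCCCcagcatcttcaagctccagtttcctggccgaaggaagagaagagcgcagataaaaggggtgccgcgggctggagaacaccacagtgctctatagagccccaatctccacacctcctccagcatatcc
Cxcl10: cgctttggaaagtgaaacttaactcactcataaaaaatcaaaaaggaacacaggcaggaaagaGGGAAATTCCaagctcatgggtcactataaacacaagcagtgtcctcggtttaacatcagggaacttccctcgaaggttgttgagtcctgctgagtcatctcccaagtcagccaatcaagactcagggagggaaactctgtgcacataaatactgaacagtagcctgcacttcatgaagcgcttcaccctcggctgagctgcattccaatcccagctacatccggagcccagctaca
Cxcl11: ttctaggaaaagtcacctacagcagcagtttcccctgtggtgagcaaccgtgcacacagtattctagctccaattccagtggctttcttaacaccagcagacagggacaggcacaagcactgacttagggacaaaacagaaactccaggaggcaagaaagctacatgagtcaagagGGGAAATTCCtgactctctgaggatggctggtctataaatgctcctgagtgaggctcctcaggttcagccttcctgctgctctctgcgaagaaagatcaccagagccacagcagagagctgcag
Ccl20: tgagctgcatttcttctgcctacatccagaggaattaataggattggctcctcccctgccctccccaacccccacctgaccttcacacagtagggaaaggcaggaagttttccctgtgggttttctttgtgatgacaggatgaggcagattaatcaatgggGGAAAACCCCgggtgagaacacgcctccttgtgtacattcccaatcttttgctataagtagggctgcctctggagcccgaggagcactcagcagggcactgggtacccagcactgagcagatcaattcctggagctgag

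In these windows Cxcl1 and Cxcl6 hold the same 11 capital letters, GGGAATTTCCC, which start 84 bases before the gene's start in Cxcl1 and 88 bases before it in Cxcl6. The match of Cxcl2 starts 74 bases before the start and that of Ccl20 starts 89 bases before it. In Cxcl10 and Cxcl11 the same 10 letters match, 187 bases before the start in Cxcl10 and 74 bases before it in Cxcl11. The other 2 promoters with a match are not shown, and their matches start 106 bases before the start in Ccl9 and 178 bases before it in Ccr3. In 5 of the 8 promoters the match therefore lies within 100 bases upstream of the start.

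Over all members, the NF-kB consensus was found in 8 of the 43 promoters, or 18.6%, beside 4.18% of the 33469 promoters of the table. The 8 genes were Ccl9, Ccl20, Cxcl1, Cxcl2, Cxcl6, Cxcl10, Cxcl11 and Ccr3. It was found in 7 of the 16 promoters of genes past the 2-fold limit upwards and in 1 of the other 27, that of Ccr3. The AP-1 letters TGANTCA were found in 7 of the 43 promoters, or 16.3%, beside 7.33% of all promoters. Of these 7 genes, Ccl7, Cxcl10 and Cxcl11 were at least 2-fold higher, and Cxcl14, Ccr3, Cxcr6 and Xcr1 were not. The STAT letters TTCNNNGAA were found in 6 promoters, or 14.0%, beside 8.87% of all promoters, and 5 of these genes were at least 2-fold higher, Ccl7, Ccl17, Ccl24, Cxcl9 and Cxcl11. The interferon-stimulated response element was found in Ccl19 and Cxcl10, 4.65% of the 43 promoters and 3.92% of all promoters. All motifs were searched on both strands, and matches of different motifs overlapped in 0 cases. A match is a description of letters in these windows and not a bound site.

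The remaining CXC and CX3C ligands did not share 1 direction. Cxcl16, which occurs as a membrane-bound and a shed ligand of Cxcr6, had 2.38 FPKM in CTRL and 14.8 FPKM in IR12, with a log2 ratio of 2.23. It shares 1 listed locus with Zmynd15, so its value is also uncertain. Cxcl12, the ligand of Cxcr4 and Ackr3, had 3.37 FPKM in CTRL and 1.33 FPKM in IR12, with a log2 ratio of -0.91. This passed the 2-fold limit with a pseudocount of 0.1, at -1.28, and after rescaling without small non-coding RNAs, at -1.17, but was -0.45 on the TPM scale. Cx3cl1, the membrane-bound ligand that neurons present to microglia, had 4.06 FPKM in CTRL and 2.42 FPKM in IR12, with a log2 ratio of -0.57 that was -0.07 on the TPM scale. Cxcl14, a ligand that epithelia make constitutively, had 15.3 FPKM in CTRL and 11.6 FPKM in IR12. Cxcl13, the attractant of B cells, had 1.60 FPKM in CTRL and 1.42 FPKM in IR12. The log2 ratios of Cxcl14 and Cxcl13 were -0.36 and -0.10 as deposited and 0.24 and 0.28 on the TPM scale, so their direction turns with the scale. Cxcl17 had 0 in CTRL and 0.513 FPKM in IR12, with a log2 ratio of 0.60 that was 2.62 with a pseudocount of 0.1 and 1.04 without small non-coding RNAs.

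Among the homeostatic CC ligands, Ccl27, a skin chemokine that binds Ccr10, had 8.22 FPKM in CTRL and 8.60 FPKM in IR12. Its log2 ratio of 0.06 was -0.03 after rescaling without small non-coding RNAs and 0.63 on the TPM scale. Ccl27 shares 1 listed locus with Il11ra1, which had 5.16 FPKM in CTRL and 4.53 FPKM in IR12, so the value of Ccl27 is also uncertain. Ccl19, a ligand of Ccr7, had 0.348 FPKM in CTRL and 0.679 FPKM in IR12. Ccl25 and Ccl28 were listed at 0 in CTRL and had 0.0673 and 0.0667 FPKM in IR12. Ccl1, Ccl21, Ccl26 and Xcl1 were listed at 0 in both libraries. Cxcl14, Ccl27, Cx3cl1 and Cxcl12 together made up 79.97% of the summed ligand FPKM of CTRL and 7.80% of that of IR12. Both shares include the uncertain value of Ccl27. The ligand RNA of the sham retina thus lay mostly in constitutive ligands, and that of IR12 in inflammatory ones.

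**Figure D2:**
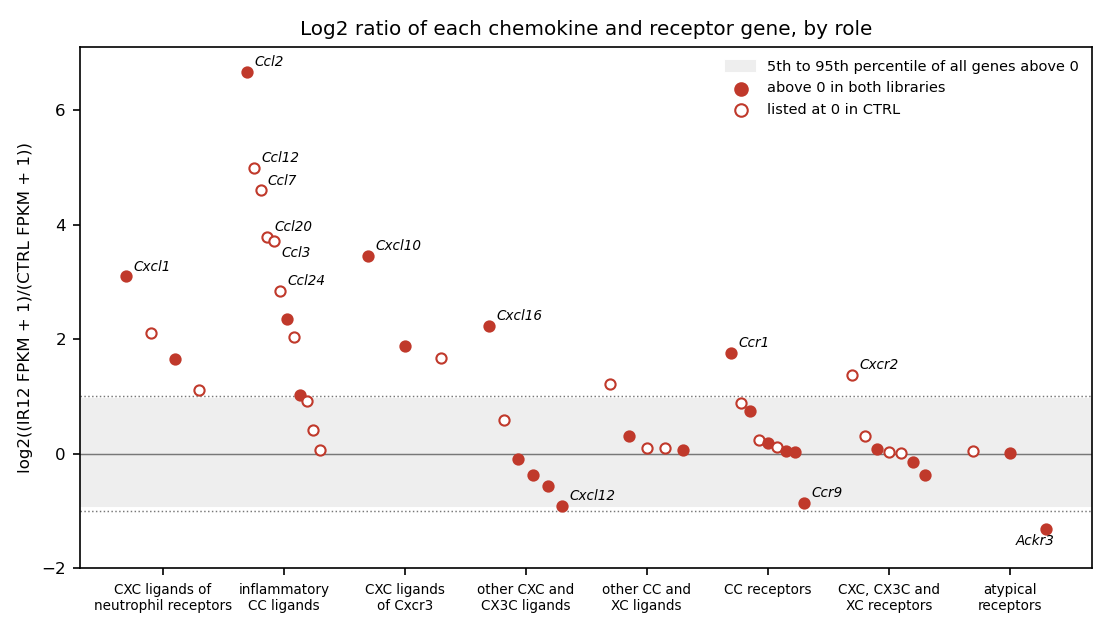
Log2 ratio of (FPKM + 1), IR12 over CTRL, of the 49 chemokine and receptor genes above 0 in either library, grouped by role, with open points for genes listed at 0 in CTRL and grey for the range from percentile 5 to percentile 95 of all genes above 0. The inflammatory ligand groups reach far above the grey range of -0.92 to 0.96, and Ackr3 at -1.31 lies below it.

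Most receptors were low in both libraries. Ccr1, a receptor of neutrophils and monocytes, had 0.158 FPKM in CTRL and 2.94 FPKM in IR12, with a log2 ratio of 1.77. Cxcr2, the main receptor of neutrophils for Cxcl1 and Cxcl2, was listed at 0 in CTRL and had 1.59 FPKM in IR12. These were the 2 receptors at least 2-fold higher. Ccr2, the receptor of monocytes for Ccl2, was listed at 0 in CTRL and had 0.854 FPKM in IR12. Its log2 ratio of 0.89 passed the 2-fold limit with a pseudocount of 0.1, at 3.25, and without small non-coding RNAs, at 1.47. Its value is less certain than those of Ccr1 and Cxcr2.

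Ackr3, Ccr9 and Cx3cr1 had lower FPKM in IR12, by less on the TPM scale. Ackr3, an atypical receptor that removes Cxcl12, had 10.03 FPKM in CTRL and 3.44 FPKM in IR12, with a log2 ratio of -1.31. On the TPM scale this was -0.75, which no longer passed the 2-fold limit. Ackr3 made up 58.0% of the summed receptor FPKM in CTRL and 21.2% in IR12. Without it the receptors summed to 7.27 FPKM in CTRL and 12.8 FPKM in IR12, so the similar sums over all receptors rested on this gene. Ccr9, known as the receptor of gut-homing T cells, had 2.99 FPKM in CTRL and 1.20 FPKM in IR12, with a log2 ratio of -0.86. That ratio passed the limit with a pseudocount of 0.1, at -1.24, and after rescaling without small non-coding RNAs, at -1.13, but was -0.42 on the TPM scale. Cx3cr1, the receptor of microglia for Cx3cl1, had 1.16 FPKM in CTRL and 0.676 FPKM in IR12, with a log2 ratio of -0.36 that was -0.69 with a pseudocount of 0.1, -0.57 without small non-coding RNAs and -0.05 on the TPM scale.

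The read step gives the ratio of reads behind some low values, but not their number. The FPKM of Cx3cr1 in IR12 and CTRL stood in the ratio of equal numbers of reads. Cxcr4, with 0.713 FPKM in CTRL and 0.557 FPKM in IR12, stood at a ratio of 4 reads in IR12 to 3 in CTRL, so its lower FPKM goes with more reads in IR12, and its log2 ratio of -0.14 was 0.10 on the TPM scale. Ccr7 stood at a ratio of 3 to 1, Ackr4 at 2 to 1, and Ccr3 and Cxcr6 at 5 to 2. Ccl19 stood at 10 to 3. These are the smallest whole numbers that fit, and any multiple of them fits as well. In all, 7 of the 25 members above 0 in both libraries stood within 0.3% of such a ratio of up to 10 reads. The 20 members above 0 but under 1 FPKM in both libraries ranged from 0.00944 to 0.887 FPKM. Of the 13 receptors among them, none lay above 0.854 FPKM. Ccr4, Ccr8 and Cxcr1 were listed at 0 in both libraries.

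Each group of ligands was set against its receptors, and several systems showed ligand RNA in IR12 without a comparable level of receptor RNA. The 3 Ccr2 ligands summed to 0.205 FPKM in CTRL and 175 FPKM in IR12, beside 0 and 0.854 FPKM of Ccr2. The 4 ligands of the neutrophil receptors summed to 26.0 FPKM in IR12, beside 1.59 FPKM of Cxcr2. Ligand RNA was abundant and receptor RNA low in both cases. The 3 ligands of Cxcr3 summed to 17.4 FPKM in IR12, beside 0.0260 FPKM of Cxcr3. Ccr6, the receptor of Ccl20, had 0 in CTRL and 0.187 FPKM in IR12, and Ccr4, the receptor of Ccl17 and Ccl22, was listed at 0. Cxcl16 was set against 0.152 FPKM of Cxcr6 in CTRL and 0.223 FPKM in IR12. The Cxcl12 system differed from these, since its ligand and the sum of its receptors were both lower in IR12. Its receptors, with 10.7 FPKM in CTRL and 3.998 FPKM in IR12, also exceeded Cxcl12, with 3.37 and 1.33 FPKM. Ccr9 was seen without its ligand, as Ccl25 was listed at 0 in CTRL and had 0.0673 FPKM in IR12.

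**Figure D3:**
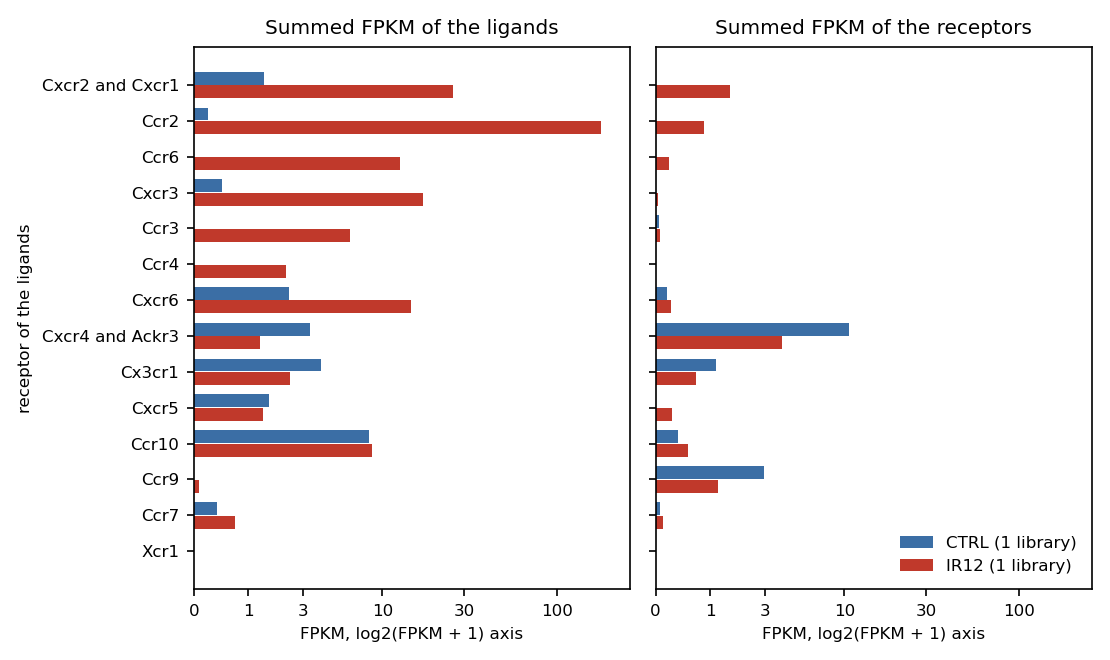
Summed FPKM of the ligands (left) and of the receptors (right) of 14 receptor systems on log2(FPKM + 1) axes, with CTRL in blue and IR12 in red, 1 library each. In the upper 7 systems the ligand sums are higher in IR12, up to 175 FPKM for the ligands of Ccr2, while no receptor sum of IR12 in the plot exceeds 3.998 FPKM.

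Chemokine genes lie in clusters, and members of a cluster were often higher together. With members under 1 Mb apart on a chromosome taken as a cluster, 37 of the 56 genes fell into 10 clusters of the listed rn6 loci. The cluster of Ccl2, Ccl7, Ccl11, Ccl12 and Ccl1 (chromosome 10, 69412017 to 69537882) spans 126 kb and had 3 members at least 2-fold higher. The cluster of Ccl5, Ccl9, Ccl6, Ccl3 and Ccl4 (chromosome 10, 70739800 to 70886355) spans 147 kb and had 4 of 5. In the cluster of Cxcl2, Cxcl1, Cxcl3 and Cxcl6 (chromosome 14, 18731378 to 18862407) all 4 members were higher, as were the 3 members of the cluster of Cxcl10, Cxcl11 and Cxcl9 (chromosome 14, 17143040 to 17234712). Members of 1 cluster did not always move together, since Ccl11 and Ccl1 lay at or near 0 between or beside genes with log2 ratios above 4. In the cluster of Ccl17, Cx3cl1 and Ccl22 (chromosome 19, 10619220 to 10681145) the log2 ratios were 1.22, -0.57 and 0.92 in this order. In the receptor cluster of Ccr9, Ccr1 and Ccr2 on chromosome 8, 1 of 8 members, Ccr1, was at least 2-fold higher.

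Other genes within 200 kb of the clusters were mostly below the 2-fold limit. Of the 62 neighbours with at least 1 FPKM in either library, 9 were at least 2-fold higher, or 14.5%, and 2 were at least 2-fold lower, or 3.23%, and their median log2 ratio was 0.18. Of the 13599 genes of the table with at least 1 FPKM in either library, 6.56% were at least 2-fold higher and 6.12% were at least 2-fold lower, so the neighbours were higher more often than these genes. The largest log2 ratio was that of Tmbim1 near Cxcr2, with 2.37 FPKM in CTRL and 27.1 FPKM in IR12. Sdad1, next to Cxcl9, had 5.89 FPKM in CTRL and 13.8 FPKM in IR12. Within the 200 kb around Ccl24 and Ccl26, Tmem120a had 4.89 FPKM in CTRL and 19.3 FPKM in IR12, and Por had 13.7 and 29.3 FPKM. The Ccl2 cluster had 1 such neighbour, Tmem132e, with 1.13 FPKM in CTRL and 0.913 FPKM in IR12. The Cxcl1 cluster also had 1, Mthfd2l, with 2.77 FPKM in CTRL and 3.47 FPKM in IR12. The platelet chemokines Pf4 and Ppbp lie in the Cxcl1 cluster but are not chosen by the symbols used here. Pf4 had 0 in CTRL and 0.645 FPKM in IR12, and Ppbp was listed at 0 in both.

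**Figure D4:**
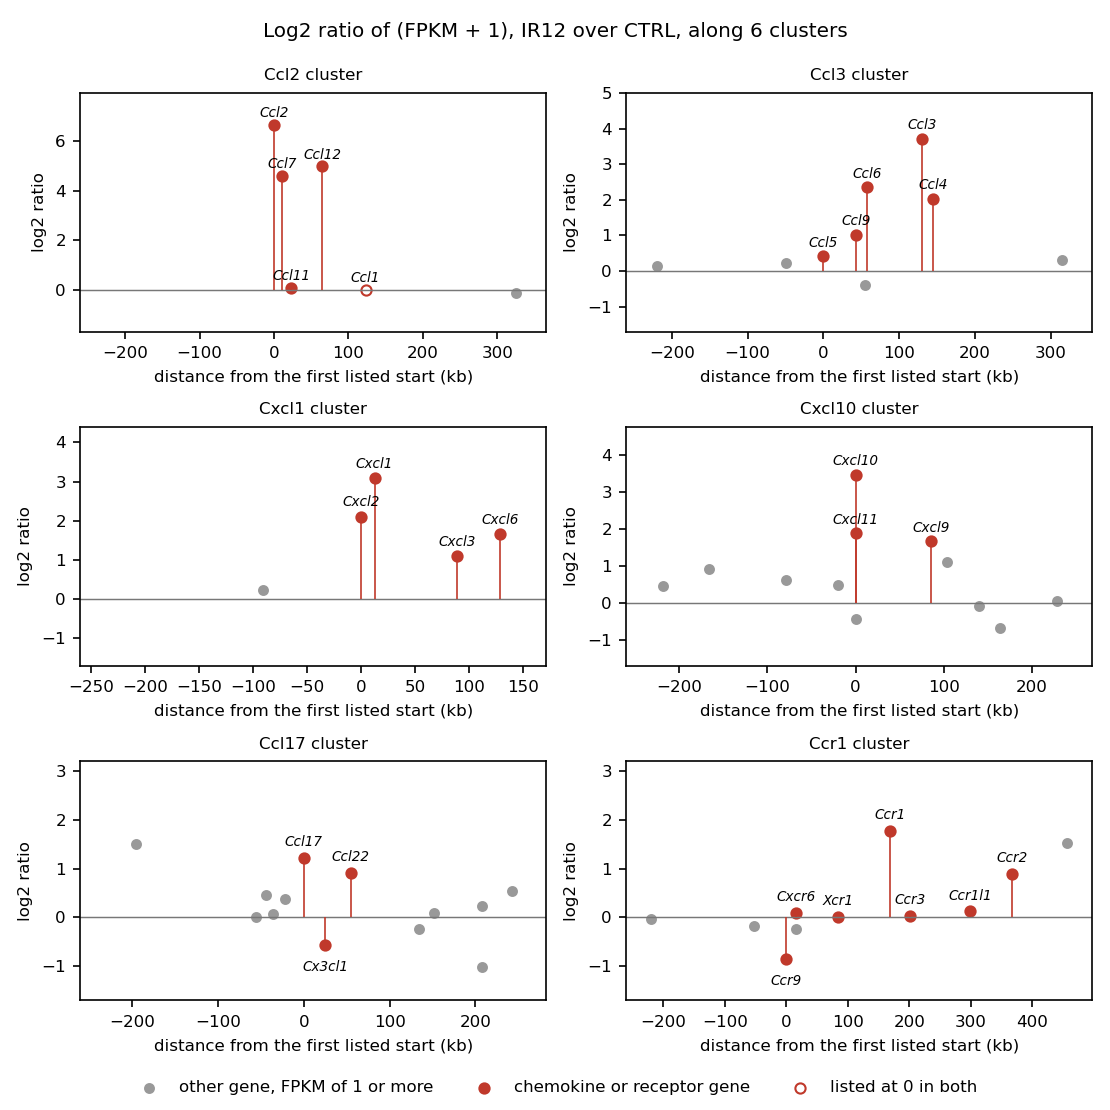
Log2 ratio of (FPKM + 1), IR12 over CTRL, against the distance in kb from the first listed start of 6 chemokine clusters, with chemokine and receptor genes in red and other genes of at least 1 FPKM within 200 kb in grey. The red points of the Ccl2, Ccl3, Cxcl1 and Cxcl10 clusters reach 6.67, 3.71, 3.10 and 3.45, and the grey points around them reach 1.10.

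Genes that induce chemokines were also often higher in IR12, where 4.67% of all genes above 0 in either library were at least 2-fold higher. Of 29 measured inducers, which are cytokines, sensors and transcription factors, 14 were at least 2-fold higher and 0 lower, with a median log2 ratio of 1.45 over the 25 above 0. Il1b, an inducer of Ccl2 and Cxcl1, had 0.109 FPKM in CTRL and 12.1 FPKM in IR12. Stat3, which acts downstream of Il6-type cytokines, had 17.7 FPKM in CTRL and 120.2 FPKM in IR12. Myd88, the adaptor of Il1 and Toll-like receptors, had 1.70 FPKM in CTRL and 12.8 FPKM in IR12. Of the 5 NF-kB subunit genes, 2 were at least 2-fold higher, Relb and Nfkb2, with 0.443 and 0.566 FPKM in CTRL and 3.01 and 3.29 FPKM in IR12. The log2 ratios of Rela, Rel and Nfkb1 were 0.97, 0.75 and 0.52. Tnf, Ifng, Ifnb1 and Il17a were listed at 0 in both libraries. The higher inducers were thus mainly signalling genes and interleukins, without a measured level of Tnf or of Ifng and Ifnb1, the interferon genes of this list.

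Genes that act after chemokines showed a smaller share of change in signalling and a larger one in adhesion. Of 28 receptor signalling genes, 5 were at least 2-fold higher, Fgr, Rac2, Grk6 and Gnb2 among them, and 0 lower, with a median log2 ratio of 0.25. The number higher was 8 with a pseudocount of 0.1 and 9 on the TPM scale. Of all genes above 0 in either library, 4.67% were at least 2-fold higher as deposited and 10.9% with a pseudocount of 0.1. That share was 14.8% on the TPM scale and 5.42% after rescaling without small non-coding RNAs. Fgr, a kinase of myeloid cells, had 0.0651 FPKM in CTRL and 2.46 FPKM in IR12. Of 15 genes of leukocyte adhesion and capture, 8 were at least 2-fold higher and 0 lower, with a median of 1.23. Cd44, a hyaluronan receptor that glia also make, had 40.8 FPKM in CTRL and 299 FPKM in IR12. Icam1, the endothelial ligand of leukocyte integrins, had 0.718 FPKM in CTRL and 7.32 FPKM in IR12, and Sele, the endothelial selectin, had 0.142 and 3.54 FPKM. Vcam1 had 10.8 FPKM in CTRL and 8.48 FPKM in IR12, a log2 ratio of -0.32, so adhesion genes did not share 1 direction as deposited. The direction of Vcam1 turned on the TPM scale. Of 13 proteases and scavengers that act on chemokines, 2 were at least 2-fold higher and 0 lower, with a median of 0.63 over the 10 above 0. These were Mmp3, at 0 in CTRL and 74.2 FPKM in IR12, and Mmp9, with 0.0441 and 1.33 FPKM, and the number was 6 with a pseudocount of 0.1 and 4 without small non-coding RNAs.

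Several marker genes of leukocytes were higher with the chemokine genes, and their part in the result was not tested. In a whole retina, fewer cells of a type and less RNA per cell cannot be told apart. Of all genes above 0 in either library, 4.67% were at least 2-fold higher, or 10.9% with a pseudocount of 0.1. The 9 neutrophil markers summed to 0.377 FPKM in CTRL and 37.4 FPKM in IR12, with 2 at least 2-fold higher, or 5 with a pseudocount of 0.1, and a median log2 ratio of 0.63 over the 6 above 0. That sum came from S100a9, with 0.199 FPKM in CTRL and 23.0 FPKM in IR12, and S100a8, at 0 and 12.8 FPKM, while the granule genes Mpo and Elane and the receptor gene Fpr1 were listed at 0 in both libraries. The 10 monocyte and macrophage markers summed to 12.4 FPKM in CTRL and 92.3 FPKM in IR12, with 5 at least 2-fold higher and a median of 1.0. Lyz2, the most abundant, had 9.73 FPKM in CTRL and 76.9 FPKM in IR12, and Cd14 had 0.130 and 2.85 FPKM, while 3 of the 10 had lower FPKM in IR12, short of the 2-fold limit but for 2 of them with a pseudocount of 0.1. The 9 T and NK cell markers summed to 1.70 FPKM in CTRL and 2.49 FPKM in IR12, with 0 past the 2-fold limit, a median of 0.11, Cd4 as the most abundant and Gzmb at 0. The 5 B cell markers summed to 0.430 and 0.259 FPKM, with 0 past the limit, a median of -0.09 and Cd79a and Pax5 at 0. The blood markers, 9 genes of erythrocytes and platelets, summed to 28.7 and 53.8 FPKM, with 1 higher, Hba-a2, a median of 0.08, Hbb as the most abundant and Ppbp at 0. T cell markers were thus low in the library in which the ligands of Cxcr3 were high.

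Markers of resident cells moved as well, and their part in the result was also not tested. Of all genes above 0 in either library, 4.36% were at least 2-fold lower. The 10 microglia markers summed to 58.8 FPKM in CTRL and 46.7 FPKM in IR12, with 0 at least 2-fold higher, 1 lower and a median log2 ratio of -0.21. Gpr34, the gene past the limit, had 4.56 FPKM in CTRL and 0.762 FPKM in IR12. Cx3cr1, itself a marker of microglia, had a similar log2 ratio of -0.36. Of the 8 Müller glia and astrocyte markers, 6 were at least 2-fold lower and 1 higher, with a median of -1.93 and a sum of 1565 FPKM in CTRL and 569 FPKM in IR12. Glul, the most abundant, had 754 FPKM in CTRL and 126 FPKM in IR12, while Gfap, which reactive glia make, had 2.95 and 21.9 FPKM. The 8 endothelium and pericyte markers summed to 159 and 95.9 FPKM, with Rgs5 at least 2-fold lower and 0 higher and Kdr as the most abundant. Their median of -0.14 turned to 0.21 on the TPM scale.

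The sham library also held more lens RNA. All 7 lens markers were at least 2-fold lower, with a median of -2.68 and a sum of 2967 FPKM in CTRL and 355 FPKM in IR12, led by Cryba1. Of the rod and cone markers, 1 was lower, Opn1sw, and 0 higher, and their median of -0.15 turned to 0.49 on the TPM scale. Of the 8 retinal ganglion cell markers, 1 was lower, Pou4f2, and 0 higher, with a sum of 331 and 269 FPKM led by Nefl and a median of -0.21 that turned to 0.30. Of the 8 pigment epithelium markers, 1 was lower, Rpe65, and 0 higher, with a sum of 120.4 and 152 FPKM led by Ttr and a median of -0.03 that turned to 0.45. On the TPM scale Rgs5, Opn1sw, Pou4f2 and Rpe65 no longer passed the 2-fold limit, and 3 pigment epithelium markers and 1 rod and cone marker were at least 2-fold higher. On that scale 14.8% of all genes above 0 were at least 2-fold higher. The constitutive chemokine genes Ackr3 and Cxcl12 were thus lower in a library in which glial and lens markers were also lower, and the part of these markers in the result was not tested.

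**Figure D5:**
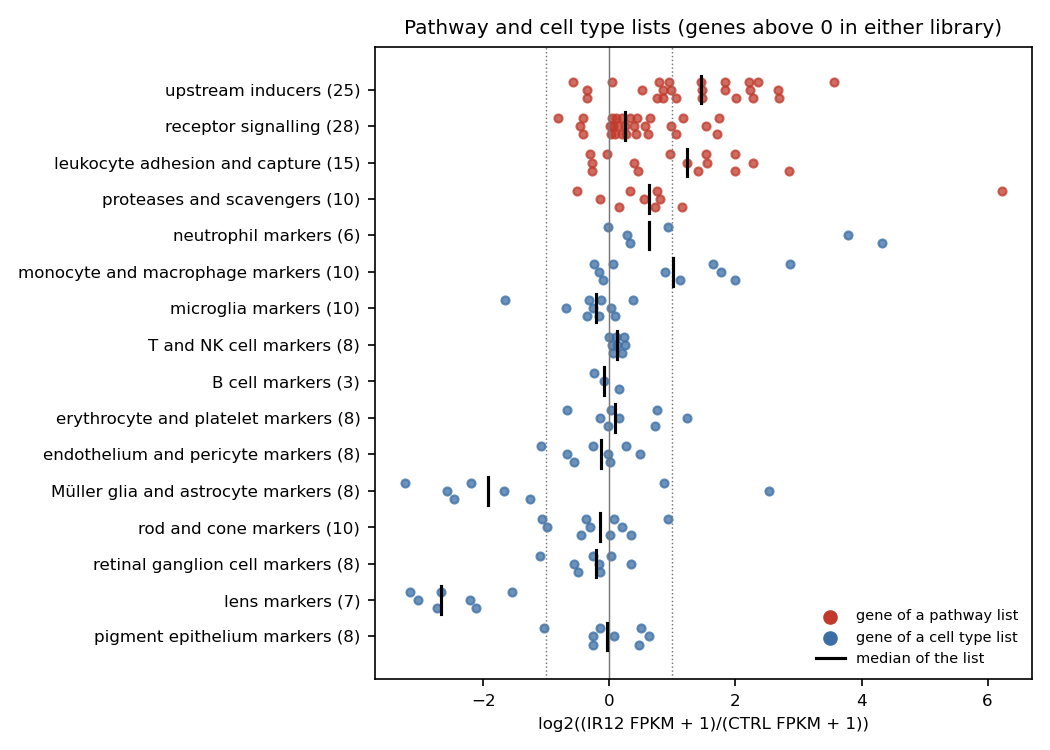
Log2 ratio of (FPKM + 1), IR12 over CTRL, of the genes of 4 pathway lists (red) and 12 cell type lists (blue), with the number of genes above 0 in brackets, a black bar for each median and dotted lines at the 2-fold limits. Inducer, adhesion and monocyte genes lie mostly to the right, with medians of 1.45, 1.23 and 1.0, and Müller glia and lens genes to the left, with medians of -1.93 and -2.68.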

How the data were processed

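Gene expression was deposited as FPKM for 2 rat retina libraries, CTRL and IR12, and the authors' processing notes name STAR 2.5.2b, Cuffdiff 2.2.0 and the rn6 build. The libraries came from a stranded kit, but the normalization and whether the counting used strand are not given in the sources used here. FPKM was used as deposited. Log2 ratios were computed with a pseudocount of 1, and genes above 0 in either library were counted as at least 2-fold changed at a log2 ratio of 1. Listed starts, which count from 0, were raised by 1. The 2-fold calls and the read step were tested on simulated data, and recovery of the read step was required only with few reads per gene. The motif search, the clusters and the lists were not tested in this way. The members and lists were chosen with earlier results of these data known. Named are members with at least 1 FPKM in either library, of each list the 3 most abundant genes and up to 4 with the largest changes, and cluster neighbours with at least 1 FPKM. Members under 1 FPKM, the NF-kB subunits, Grk6, Gnb2 and Vcam1 were named after their values were seen. Itgam, Elane, Mmp8, Pf4 and Ppbp stand in more than 1 list. Some genes of these counts are not reported here. Cysteine motifs of the ligand proteins were not analysed here. Alternatives were a pseudocount of 0.1, the TPM scale, rescaling without small non-coding RNAs, centring on the median gene and other filters. Python 3.11.15, numpy 2.4.6, pandas 2.3.3 and matplotlib 3.10.9 were used.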

Additional observations from a re-analysis of the deposited data

How the results depend on the processing

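The chemokine genes at least 2-fold higher in IR12 numbered between 17 and 27 under 6 other settings, and 9 when genes had to be above 0 in both libraries, a filter chosen after seeing the data that leaves fewer genes. Those at least 2-fold lower numbered 1, but 3 with a pseudocount of 0.1, 3 after rescaling without small non-coding RNAs and 0 on the TPM scale. Over all genes the higher counts were 2076 with a pseudocount of 0.1 and 2828 on the TPM scale, and the lower counts were 1787 and 436, and 1259 without small non-coding RNAs. The median log2 ratio of the chemokine genes was 0.41 in the main analysis, 1.74 with a pseudocount of 0.1, and 1.88 for a mean FPKM of at least 1, which drops low genes. It was 0.63 on the TPM scale, 0.76 without small non-coding RNAs, 0.39 after centring, 0.22 with no filter and 0.09 for genes above 0 in both libraries. The cause of the other shifts was not tested. The median of the ligands was between 1.07 and 3.30 and that of the receptors between -0.05 and 0.36 over all settings, the negative value for a mean FPKM of at least 1. No named chemokine gene past the limit changed sign. With a pseudocount of 0.1 the lists also had 2 blood markers and 1 B cell marker at least 2-fold higher, and 2 monocyte, 2 microglia, 2 rod and cone, 2 ganglion cell and 1 blood marker at least 2-fold lower. Without small non-coding RNAs, 2 blood markers were higher, and 2 microglia, 2 rod and cone and 1 blood marker lower. On the TPM scale 2 blood and 2 glial markers were higher, and after centring 2 rod and cone markers were lower. No paired analysis was possible because each group has 1 library. Without read counts, the precision of low FPKM is unknown.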

Other observations

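Of the 167 genes of the table that were listed at 0 in CTRL and had at least 1 FPKM in IR12, 11 were chemokine or receptor genes. Of these, 10 were ligands and the other was Cxcr2. Of the 500 genes with the largest log2 ratios, 16 were chemokine or receptor genes.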
